A study of Caenorhabditis elegans with 5 samples.

Results

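The left 500 kb of the X chromosome of C. elegans was described here in nascent RNA. Its members were the 1 kb windows of chrX that start within 500 kb of the left end and that the authors did not mark as misannotated. These were 487 of 99764 kept windows of the genome, against 17127 windows in the rest of chrX. Another 13 windows of the stretch were marked as misannotated and were left out. All coordinates are those of the ce6 (WS190) build, counted from 1.

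RNA was recovered from chromatin pulled down with an antibody to the S2-phosphorylated C-terminal domain of RNA polymerase II, the form found on elongating polymerase, and was sequenced (pre-mRNA-seq). The 5 libraries, 1 for each genotype, were N2 wild type (WT), the single mutants set-32(ok1457) and hrde-1(tm1200), the double mutant met-2(n4256);set-25(ok5021), drawn as met-2 set-25 in the plots, and the triple mutant, in which set-32(ok1457) is added to that double mutant. Whole young adults were used for each, kept at 19 °C on OP50 bacteria, a stage at which the germline holds much of the body's cells. With 1 library for each genotype no difference has a replicate check, no p-value is given, and neighbouring windows are not replicates.

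In young adult hermaphrodites the X chromosome is known to be silent in much of the germline. How much of its nascent RNA here came from somatic cells was not measured. The left end of X carries the pairing centre, the region that the zinc finger protein HIM-8 binds to pair the X chromosomes in meiosis. HRDE-1 is an Argonaute protein of the germline that enters the nucleus with small RNAs and directs silencing of matching genes. The proteins SET-25, MET-2 and SET-32 are histone methyltransferases (HMTs) on which H3K9me3 depends, trimethylation of lysine 9 of histone H3 and a mark of silent chromatin. MET-2 and SET-25 are also known to hold chromosome arms at the nuclear periphery in embryos. In whole animals, fewer cells of a type and less RNA per cell cannot be told apart. No annotation of ce6 was used here, so no window was assigned to a gene, and the libraries were not checked against marker genes of germline or soma.

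The libraries differed in depth. A single read was worth 0.912 RPKM (reads scaled to window length and library size) in WT and 3.09 RPKM in the triple mutant, with 1.47 to 1.80 RPKM in the other libraries. The stretch held 3825 reads in WT, 1637 in set-32, 1914 in the double mutant, 991 in the triple mutant and 1435 reads in hrde-1. The library codes fall into 2 sets, with WT, the double mutant and hrde-1 in the larger set and set-32 and the triple mutant in the other. For set-32 or the triple mutant against WT, the genotype cannot be told apart from the set. The pairs compared inside a set were hrde-1 and WT, the double mutant and WT, and the triple mutant and set-32. Intervals are 95% intervals on recovered reads and cover counting error only.

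The mean nascent RNA of the stretch, over all kept windows, was above that of the rest of chrX in WT and below it in hrde-1, and both directions depended on which windows were used. The mean of the 487 windows was 7.17 RPKM in WT, 6.04 in set-32, 5.87 in the double mutant, 6.28 in the triple mutant, and hrde-1 had 4.34. The rest of chrX had means of 5.06, 4.29, 5.43, 3.63 and 5.16 RPKM in the same order. The ratio of stretch to rest was therefore 1.42 in WT (1.37 to 1.46), 1.41 in set-32 (1.34 to 1.48), 1.08 in the double mutant (1.03 to 1.13), 1.73 in the triple mutant (1.62 to 1.85) and 0.841 in hrde-1 (0.798 to 0.886). The intervals of WT and set-32 overlapped, and those of the other libraries overlapped with none. Over windows that average 5 RPKM or more in the 5 libraries, the WT ratio was 0.838 (0.808 to 0.869) and the hrde-1 ratio 0.484. Without the 1% of chrX windows with the highest mean they were 1.78 and 1.04 (0.976 to 1.10). The ratio of hrde-1 was below that of WT in each case. The mean is carried by few windows: in WT 34 of 487 windows reached 20 RPKM, and the median was 3.33 RPKM against 0.91 RPKM in the rest of chrX. The share of windows at 0 was 14.8% in the stretch and 37.7% in the rest in WT, and 28.7% and 44.5% in hrde-1.

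The stretch was rich in windows with H3K9me3. The deposited table gives each window a tier, called K9_tire, which the sources used here do not define. Low tiers were read as high H3K9me3, because 99% of the windows of tier 1 and 98.2% of those of tier 2 were marked as having lost H3K9me3 in the triple mutant, against 50.9% in tier 3, 0.928% in tier 4 and 0% in tiers 6 and 7. Tier 8 does not follow this order: its 13 kept windows all lie at the right end of chromosome I, none in the stretch, and 92.3% of them were marked in each HMT mutant. The stretch held 0 windows of tier 1, 32 of tier 2, 83 of tier 3, 207 of tier 4, 85 of tier 5, 63 of tier 6 and 17 of tier 7. Tiers 1 to 3 thus made up 23.6% of the stretch, 1.77% of the rest of chrX and 5.62% of the autosomes.

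Windows marked as having lost H3K9me3 in both replicates of a mutant were 36 for set-32, 84 for the double mutant and 97 for the triple mutant. These were 7.39%, 17.2% and 19.9% of the stretch, against 0.784%, 2.64% and 3.24% of all kept windows. The 17127 windows of the rest of chrX held 9, 108 and 135 such windows. Of these, the segment X 1500001 to 2000000 alone held 2, 42 and 53. Loss was marked in all 3 HMT mutants in 34 windows of the stretch and in 9 of the rest. The marks of the stretch lay between 20 kb and 280 kb from the left end, and none of its windows beyond 300 kb had one. Windows in which H3K9me3 depends on germline nuclear RNAi by the authors' list (GRH) were 3 in the stretch and 0 in the rest of chrX, and windows silenced by that pathway (GRTS) were 0 in both. The GRH share was 0.616% in the stretch and 0.216% over all kept windows. The GRH window at X 251001 to 252000 had 12.0 RPKM in WT, 9.04 in set-32, 5.22 in the double mutant, 1.54 in the triple mutant, and hrde-1 had 6.63. The GRH windows at X 214001 to 215000 and X 255001 to 256000 stayed below 10 RPKM in every library.

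**Figure D1:**
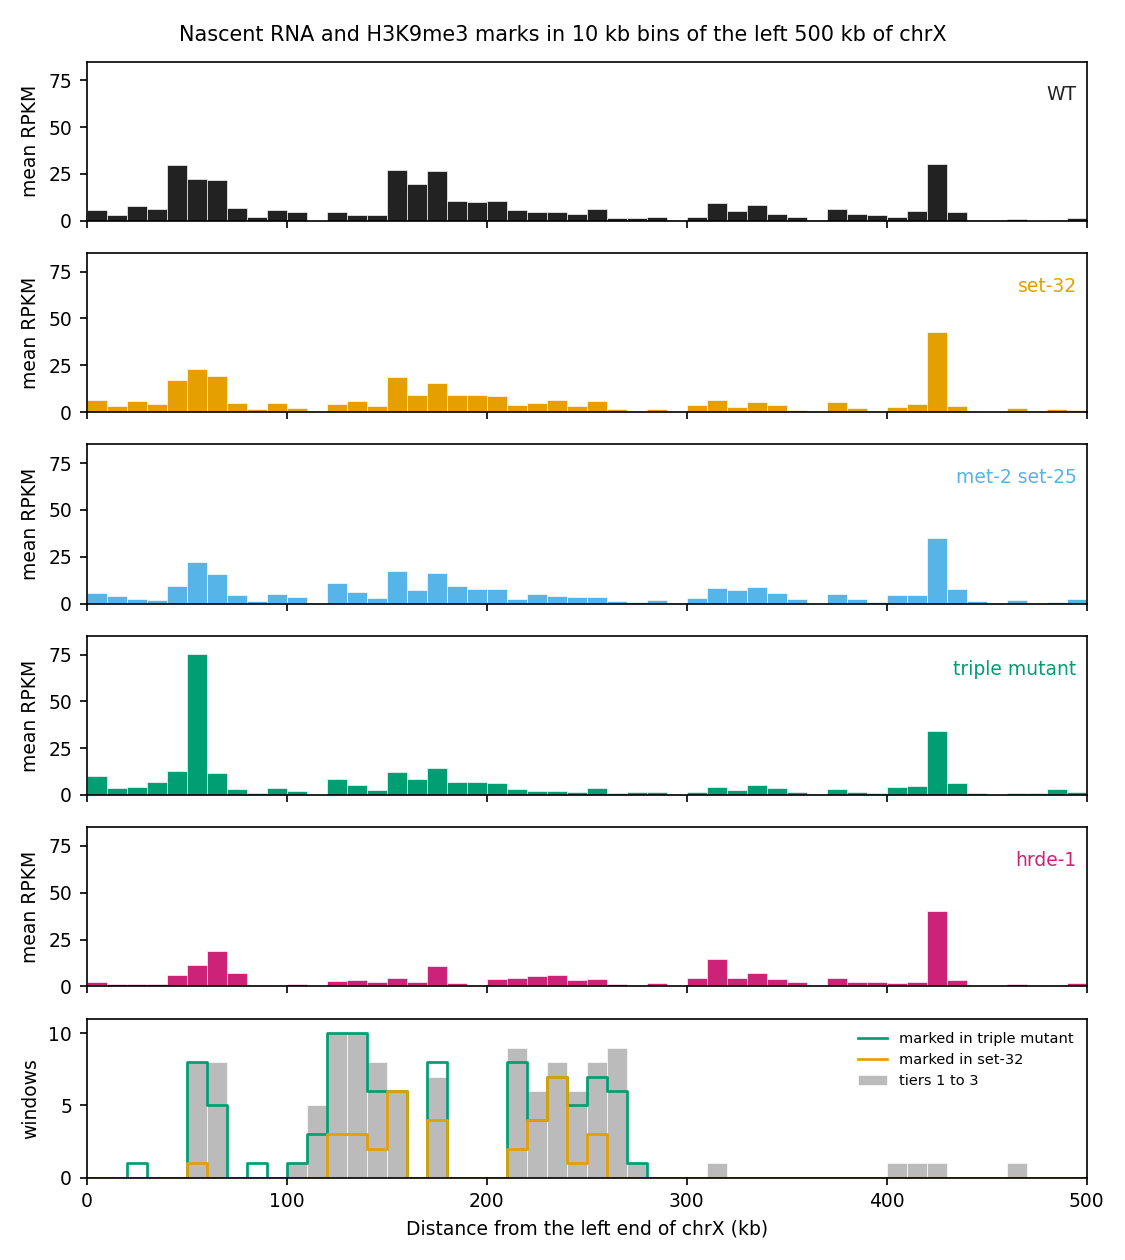
Mean RPKM (y axis, linear, from 0) in 10 kb bins against distance from the left end of chrX (x axis, kb), with 1 panel for each of the 5 libraries, and in the lowest panel the number of windows per bin in tiers 1 to 3 (grey bars) and marked as having lost H3K9me3 in the triple mutant or in set-32 (lines). The hrde-1 profile lies below that of WT at 0 to 60 kb and 150 to 210 kb. WT has broad peaks at 40 to 70 kb and 150 to 180 kb. At 60 to 70 kb hrde-1 has 18.8 RPKM against 21.9 in WT. All libraries share the peak at 420 to 430 kb.

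Of the 5 comparisons, hrde-1 against WT had the largest difference in the stretch. The hrde-1 to WT ratio of the summed RPKM was 0.606 (0.570 to 0.644) in the stretch and 1.02 in the rest of chrX, a relative ratio of 0.594 (0.559 to 0.632). The value in hrde-1 was below that in WT in 305 of 487 windows (62.6%) and above it in 122. In the rest of chrX it was below in 37.7% and above in 32.6%, and in the genome 41.9% and 34.0%. Over the 159 windows that average 5 RPKM or more in the 5 libraries, the median log2 ratio after adding 1 RPKM was -0.80, against -0.10 over 3399 such windows in the rest of chrX and -0.11 over 34426 in the genome. hrde-1 had the lowest value of the 5 libraries, with no tie, in 28.9% of the 450 windows above 0 somewhere. In the rest of chrX this share was 7.53%. The triple mutant was the lowest in 22% of the windows of the stretch and 19.2% of those in the rest. A tie at 0 counts for no library, and windows at 0 were more common in the rest of chrX. In the stretch the triple mutant was below WT in 306 windows (62.8%), set-32 in 280 (57.5%) and the double mutant in 261 (53.6%). In the rest of chrX their shares below WT were 44.3%, 45.7% and 31.6%, and in the genome 52.6%, 52.6% and 35.7%. A raw count below WT of this size was thus not particular to hrde-1. The shares over the genome differ, however: the triple mutant and set-32 were below WT in most windows there, and hrde-1 in 41.9%.

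Among 500 kb segments of the genome with at least 250 kept windows, the hrde-1 to WT ratio of the stretch ranked lowest of 201. The next lowest segment had 0.773, the lowest other segment of chrX had 0.785, and the median segment had 0.929. For the double mutant against WT the stretch ranked 7 of 201 from the lowest, at 0.819. The right 500 kb of chrX, with 496 windows, had means of 3.76 RPKM in WT against 3.51 RPKM in hrde-1. The segment X 1500001 to 2000000 also held many windows of tiers 1 to 3 (112 of 488), and its means were 2.71 RPKM in WT against 2.50 RPKM in hrde-1.

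**Figure D2:**
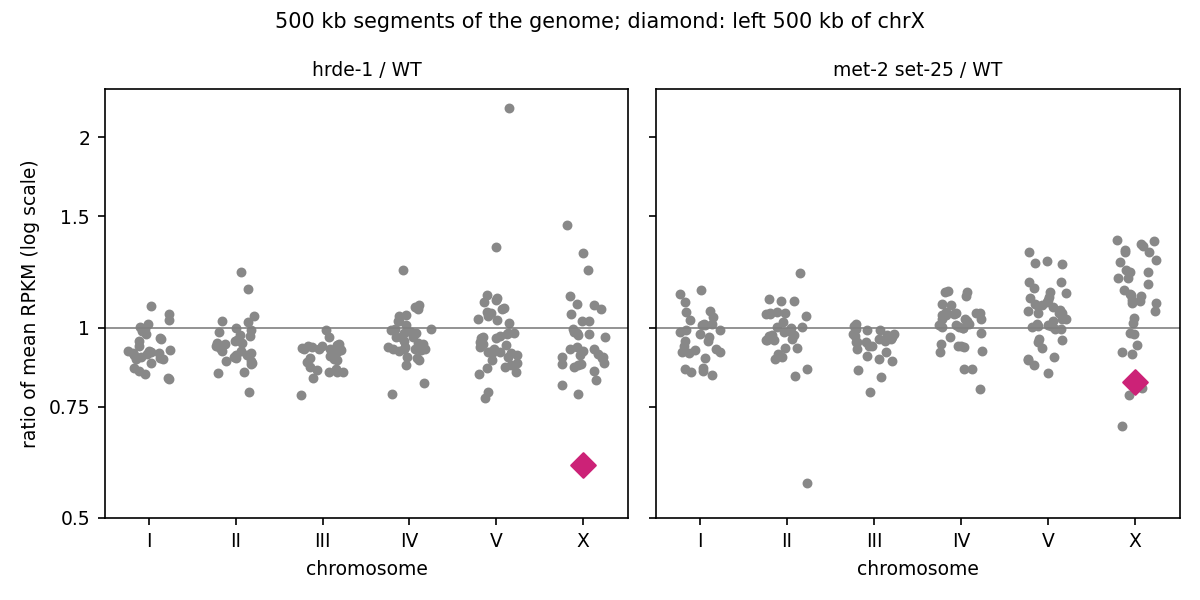
Ratio of mean RPKM (y axis, log scale) of hrde-1 to WT (left) and of met-2 set-25, the double mutant, to WT (right) in 201 segments of 500 kb, by chromosome (x axis, points spread sideways at random). The diamond is the left 500 kb of chrX, at 0.606 and 0.819; the grey points are the other segments, of which the lowest in the left panel has 0.773.

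The difference between hrde-1 and WT lay mostly in parts of the stretch, read in bins of 50 kb. At 0 to 50 kb the mean was 10.5 RPKM in WT, 7.50 in set-32, 4.65 in the double mutant, 7.43 in the triple mutant, and hrde-1 had 2.44. The ratio of hrde-1 to WT there, relative to the rest of chrX, was 0.226 (0.177 to 0.287). At 150 to 200 kb the means were 18.6, 12.2, 11.5, 9.89 and 4.08 RPKM in the same order, and the relative ratio was 0.215 (0.179 to 0.257). In both bins hrde-1 was the lowest library and WT the highest. The bins between them and up to 300 kb had relative ratios of 0.632 to 0.780, with intervals below 1. From 300 kb on, the ratios were 1.16 (0.974 to 1.38), 0.744 (0.563 to 0.979), 1.12 (0.966 to 1.29) and 1.46 (0.872 to 2.52). The interval of the bin at 350 to 400 kb lay below 1, and the others included 1.

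**Figure D3:**
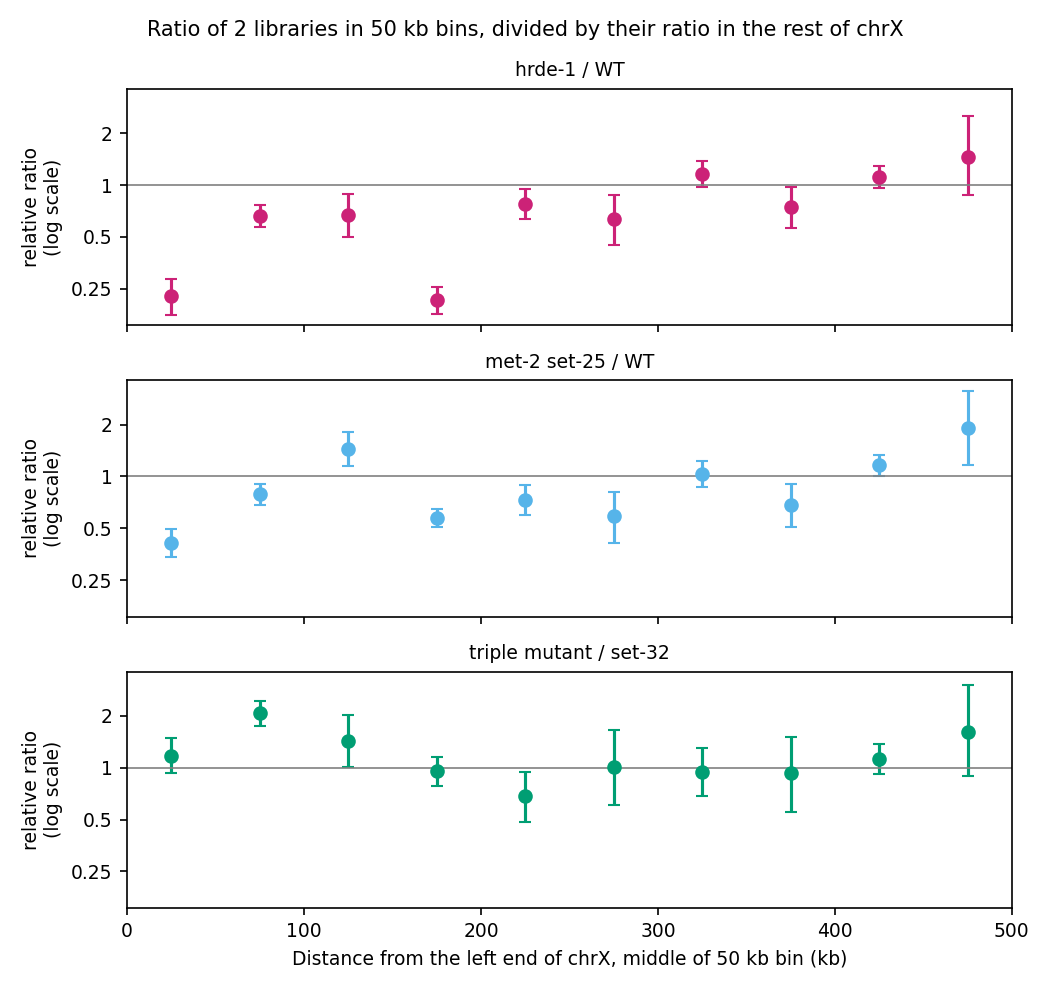
Ratio of summed RPKM of the libraries compared in each 50 kb bin, divided by the same ratio in the rest of chrX (y axis, log scale), against distance from the left end (x axis, kb), for the 3 comparisons within a library set. Bars are 95% intervals for counting error; hrde-1 / WT is lowest at 0 to 50 kb (0.226) and 150 to 200 kb (0.215), and the triple mutant / set-32 is highest at 50 to 100 kb (2.07).

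Finer limits, chosen after the values were seen and so a description, placed the low hrde-1 values in 3 blocks. At 1 to 60000 the mean was 12.5 RPKM in WT against 3.99 in hrde-1, a ratio of 0.319 (0.268 to 0.379), and hrde-1 was below WT in 56 of 59 windows. At 90001 to 110000 the means were 5.08 and 1.01 RPKM, a ratio of 0.199 (0.102 to 0.354), and hrde-1 was below WT in 18 of 19 windows. At 150001 to 210000 the means were 17.3 and 4.04 RPKM, a ratio of 0.233 (0.196 to 0.274), and hrde-1 was below WT in 59 of 60 windows. Within the last block, the 10 kb at 190001 to 200000 had 9.91 RPKM in WT against 0.534 RPKM in hrde-1 (4 reads), with 9.07, 7.64 and 6.95 RPKM in set-32, the double mutant and the triple mutant.

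Outside these blocks the ratios were closer to 1, with some low bins. At 60001 to 80000 the mean was 14.3 RPKM in WT against 12.9 in hrde-1, a ratio of 0.908 (0.753 to 1.10). The bin at 80001 to 90000 had 2.13 RPKM in WT against 0.828 in hrde-1, a ratio of 0.390 (0.140 to 1.06) on few reads. At 120001 to 150000, where 28 of 30 windows were of tiers 1 to 3, it was 3.57 RPKM in WT against 3.04 in hrde-1 (ratio 0.853, 0.619 to 1.17). At 210001 to 500000 the means were 4.24 and 4.44 RPKM (ratio 1.05, 0.960 to 1.14), which pools the low bin at 250001 to 300000 (0.645, 0.456 to 0.897) with higher ones. At 1 to 210000 they were 11.3 and 4.21 RPKM (ratio 0.374, 0.341 to 0.409). Reads were still present in the low blocks: in hrde-1, 10 of the 60 windows at 150001 to 210000 and 13 of the 59 at 1 to 60000 were at 0.

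A window was called higher or lower when the ratio after adding 1 RPKM reached 2 and the larger value reached 20 RPKM. In the stretch 36 windows could be called between hrde-1 and WT, of which 24 were called lower and 1 higher. Of the 15547 windows of the whole table that could be called, 7.08% were lower and 4.8% were higher, and in the rest of chrX 115 of 918 were lower and 52 higher. After rescaling to a median ratio of 1 over the genome's windows that average 5 RPKM or more and are on no list of the authors, 22 were lower and 1 higher in the stretch, against 4.92% lower and 6.65% higher in the table. Of the 24 lower windows 6 lay at 0 to 60 kb, 1 at 60 to 80 kb, 16 at 150 to 210 kb and 1 beyond 300 kb.

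In these 24 windows the lowest, median and highest values were 20.1, 32.4 and 116 RPKM in WT and 0.70, 6.26 and 26.3 RPKM in hrde-1. The medians of the other libraries lay between, with 18.9 RPKM in set-32, 17.5 in the double mutant and 13.6 in the triple mutant. hrde-1 was the lowest library in 22 of the 24 and the triple mutant in the other 2. These windows were taken by a high WT value and a low hrde-1 value, so both ranks are largely fixed by the choice. Lower values in the other mutants there are also in part fixed by it.

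The window with the smallest ratio was X 48001 to 49000 (tier 5), with 32.4 RPKM in WT (35 reads), 21.6 in set-32, 16.4 in the double mutant, 10.8 in the triple mutant, against 0.74 in hrde-1, less than the 1.47 RPKM of 1 whole read, as a read shared among places can give. X 152001 to 153000 (tier 2, marked in all 3 HMT mutants) had 45.2 RPKM in WT, 18.9, 17.9 and 18.5 in set-32, the double mutant and the triple mutant, and 1.47 in hrde-1. X 160001 to 161000 (tier 6) had 32.8 RPKM in WT against 1.47 in hrde-1, with 17.1, 11.9 and 9.26 RPKM in set-32, the double mutant and the triple mutant. In all 3 windows hrde-1 held at most 1 read while each HMT mutant held 3 or more. The windows were picked for a small hrde-1 to WT ratio, so their low hrde-1 values are fixed by the choice.

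A run of 4 adjacent windows, X 162001 to 166000 (tiers 5 to 7, no mark), was called lower in hrde-1. Its mean was 32.1 RPKM in WT (141 reads), 13.9 in set-32, 10.2 in the double mutant, 12.3 in the triple mutant, and hrde-1 had 2.35 (6 reads), a hrde-1 to WT ratio of 0.0732 (0.0248 to 0.153). The same windows were called lower in the double mutant, with a ratio of 0.318 (0.20 to 0.476). A run of 3 windows at X 173001 to 176000, all of tier 2, was called lower in hrde-1, with means of 54.8 RPKM in WT, 31.5 in set-32, 30.5 in the double mutant, 33.8 in the triple mutant, against 21.1 in hrde-1 (ratio 0.385, 0.270 to 0.541). WT was the highest of the libraries in both runs and hrde-1 the lowest, an order in part fixed by the call that picked them.

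Of the windows called lower in hrde-1 at 0 to 60 kb, those with the largest WT values stood at 44 kb and 46 kb, both of tier 5. X 46001 to 47000 had 116 RPKM in WT, 48.5 in set-32, 37.3 in the double mutant, 41.7 in the triple mutant, and hrde-1 had 26.3. X 44001 to 45000 had 69.01, 39.2, 16.7, 39.6 and 12.5 RPKM in the same order. All 4 mutants were below WT in both, and hrde-1 was the lowest, which the choice of windows in part fixes. The window called higher in hrde-1 was X 316001 to 317000 (tier 4), with 12.0 RPKM in WT, 5.44 in set-32, 18.4 in the double mutant, 18.8 in the triple mutant, against 28.4 in hrde-1. It lies in a bin, 310001 to 320000, where the mean was 9.70 RPKM in WT against 14.4 in hrde-1 (ratio 1.48, 1.11 to 1.97).

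**Figure D4:**
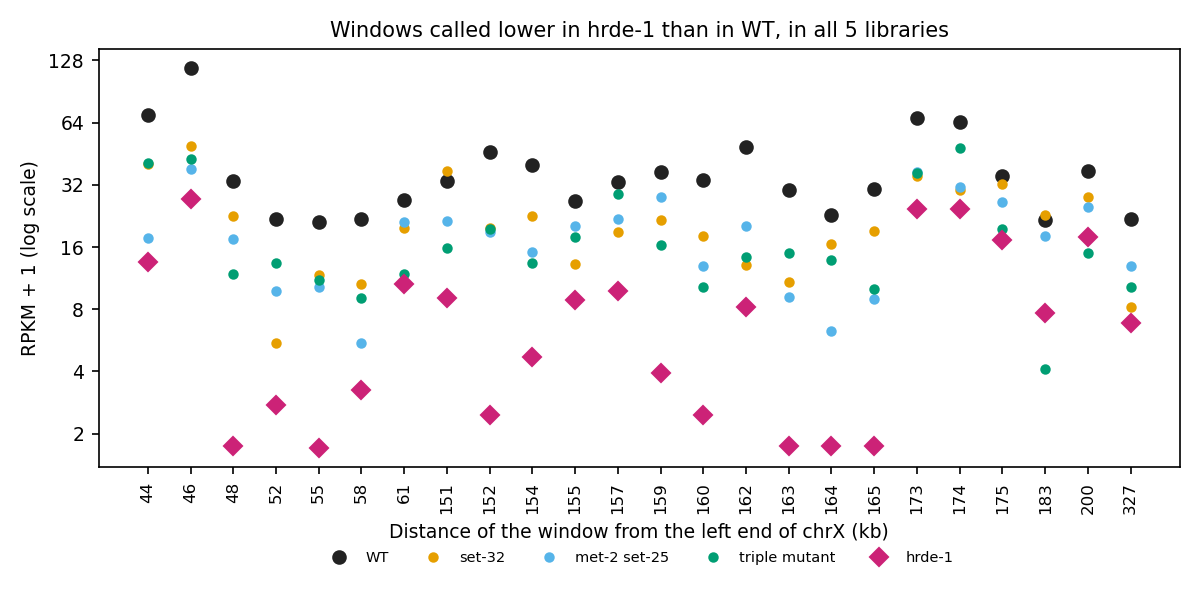
RPKM + 1 (y axis, log scale) in all 5 libraries for the 24 windows called lower in hrde-1 than in WT, ordered by their distance from the left end of chrX (x axis, kb, not to scale). Diamonds are hrde-1, with values of 0.70 to 26.3 RPKM, large circles WT, with 20.1 to 116 RPKM, and small circles the 3 HMT mutants, most of which lie between.

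The low hrde-1 values were not limited to windows with H3K9me3, and over the first 300 kb as a whole the ratio was smallest in the windows of high tier number, read as those with the least. Over the first 300 kb the hrde-1 to WT ratio was 0.637 in tier 2 (0.548 to 0.739, 32 windows), 0.626 in tier 3 (0.538 to 0.729, 78 windows), 0.474 in tier 4 (0.400 to 0.562, 93 windows), 0.212 in tier 5 (0.163 to 0.270, 39 windows), 0.0936 in tier 6 (0.0532 to 0.151, 32 windows) and 0.0885 in tier 7 (0.0351 to 0.189, 13 windows). In mean RPKM from tier 2 to tier 7, WT had 18.0, 7.21, 5.97, 13.1, 8.46 and 8.91, with no steady fall. In the same order hrde-1 had 11.5, 4.52, 2.83, 2.77, 0.792 and 0.788. The tiers are not spread evenly along the stretch, so the same was read within blocks. Within 150001 to 210000 the ratio was 0.314 in tiers 1 to 3 (0.248 to 0.393, 13 windows), 0.326 in tier 4 (0.231 to 0.459, 19 windows) and 0.106 in tiers 5 to 7 (0.0712 to 0.155, 28 windows). Within 1 to 60000 it was 0.563 (0.428 to 0.734, 8 windows), 0.293 (0.196 to 0.417, 22 windows) and 0.197 (0.143 to 0.266, 29 windows). The first of these rested on the window X 59001 to 60000, with 95.9 RPKM in WT against 102 in hrde-1. The 6 windows of tier 3 there had a ratio of 0.096 (0.0285 to 0.217), below 0.211 in tier 5 and 0.149 in tier 6, so the order by tier was not seen in this block.

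Windows of the same tiers elsewhere on chrX had other ratios. In the rest of chrX the hrde-1 to WT ratio was 1.27 in tiers 1 to 3 (1.22 to 1.32), 1.06 in tier 4 (1.04 to 1.08) and 0.975 in tiers 5 to 7 (0.962 to 0.988). Beyond 300 kb within the stretch it was 1.06 in tier 4 (0.921 to 1.22) and 0.902 in tiers 5 to 7 (0.712 to 1.14). Windows of high level carry the sums in the rest of chrX. In its tiers 1 to 3 the mean was 17.1 RPKM in WT and 21.7 in hrde-1, while the medians were 1.82 and 2.03 RPKM. Windows marked in the triple mutant had a ratio of 0.578 (0.516 to 0.646) in the stretch and 1.16 (1.04 to 1.29) in the rest of chrX. Across the 159 windows of the stretch that average 5 RPKM or more, Spearman's rho of the log2 ratio with the tier was -0.33, against -0.04 over 3399 windows in the rest of chrX. These points share a pair of libraries and a neighbourhood, and the rho is a description.

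**Figure D5:**
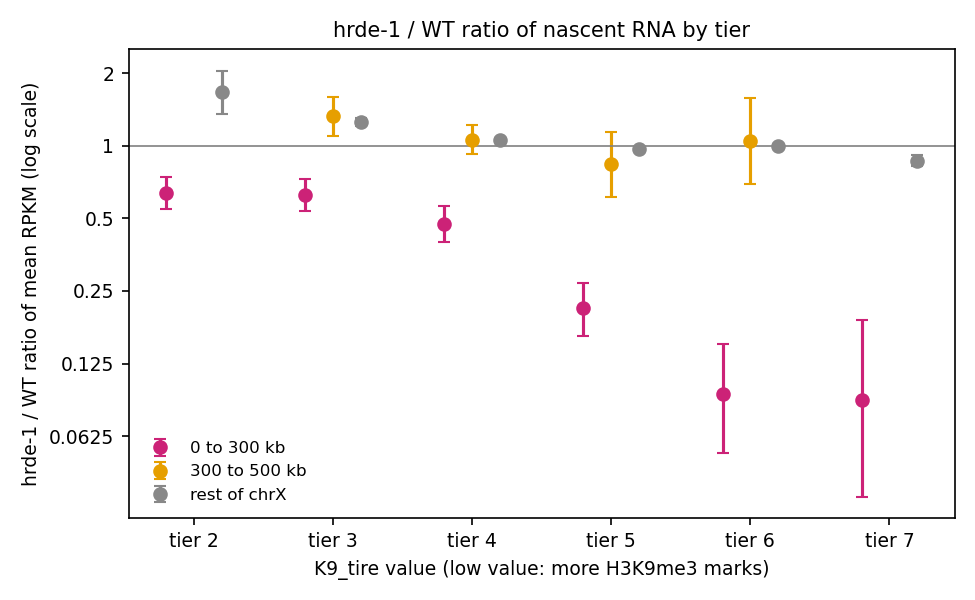
Ratio of mean RPKM of hrde-1 to WT (y axis, log scale) by tier (x axis) in the first 300 kb of the stretch, its last 200 kb and the rest of chrX, with 95% intervals for counting error; groups of fewer than 5 windows are not drawn. In the first 300 kb the ratio goes from 0.637 in tier 2 to 0.0885 in tier 7. In the rest of chrX it is 1.67 in tier 2 (1.36 to 2.05), and tiers 3 to 7 lie between 0.868 and 1.26.

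Between the double mutant and WT the stretch was lower by less. The ratio was 0.819 (0.775 to 0.865) in the stretch and 1.07 in the rest of chrX, a relative ratio of 0.763 (0.722 to 0.807). The median log2 ratio was -0.35 in the stretch, 0.11 in the rest of chrX and -0.02 in the genome. Of 41 windows that could be called, 13 were lower and 2 higher, against 7.7% lower and 7.29% higher over the table. All 13 lay at 44 to 58 kb or 152 to 174 kb. This comparison shares the WT library with that of hrde-1, so a high WT value enters both. Between the mutants themselves, with no WT library, the hrde-1 to the double mutant ratio relative to the rest of chrX was 0.779 (0.726 to 0.835), and it was 0.371 (0.307 to 0.443, not relative) at 150001 to 210000 and 0.522 (0.429 to 0.636) at 1 to 60000. Both blocks were chosen after low hrde-1 values were seen there, so these low ratios are in part fixed by the choice. The same ratio was 1.26 (1.00 to 1.58) at 60001 to 80000 and 1.19 (0.959 to 1.49) at 210001 to 300000. It was 0.294 (0.168 to 0.504) at 80001 to 120000, 0.457 (0.332 to 0.622) at 120001 to 150000 and 0.963 (0.864 to 1.07) at 300001 to 500000.

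The lowest 50 kb bin for the double mutant against WT was 0 to 50 kb, at a relative ratio of 0.411 (0.342 to 0.494), followed by 150 to 200 kb at 0.576 (0.511 to 0.648). 3 bins went the other way with intervals above 1, those at 100 to 150 kb (1.45, 1.16 to 1.82), 400 to 450 kb (1.16, 1.01 to 1.33) and 450 to 500 kb (1.92, 1.17 to 3.13). The last had a mean of 0.586 RPKM in WT against 1.21 in the double mutant. Within the bin at 100 to 150 kb, all 20 windows at 120001 to 140000 were of tiers 1 to 3 and marked as having lost H3K9me3 in the double mutant, limits chosen after the values were seen. Their mean was 3.72 RPKM in WT, 5.04 in set-32, 8.61 in the double mutant, 6.91 in the triple mutant, and hrde-1 had 3.37. The double mutant to WT ratio was 2.32 (1.73 to 3.13), and the triple mutant to set-32 ratio was 1.37 (0.912 to 2.08), an interval that includes 1. The window there called higher in the double mutant was X 127001 to 128000 (tier 3), with 11.4 RPKM in WT, 7.19 in set-32, 23.9 in the double mutant, 9.26 in the triple mutant, against 9.58 in hrde-1. X 428001 to 429000 (tier 4, no mark) was also called higher in the double mutant, with 5.47, 1.80, 23.9, 3.09 and 16.2 RPKM in the same order.

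The triple mutant against set-32 addresses the loss of MET-2 and SET-25 again, in animals without SET-32 and in libraries that the comparison above does not use. The ratio in the stretch was 1.04 (0.961 to 1.13), 0.845 in the rest of chrX and 1.23 relative to it (1.14 to 1.33). This value rested largely on a single window, X 59001 to 60000 (tier 2, marked in the double mutant and the triple mutant). It had 95.9 RPKM in WT, 158 in set-32, 176 in the double mutant, 693 in the triple mutant (224 reads), and hrde-1 had 102, so the triple mutant stood far above all others. Without the 2 windows of the stretch with the highest mean, a choice made after seeing the data, the relative ratio was 1.01 (0.922 to 1.11). Without the 1% of chrX windows with the highest mean the direction turned, at 0.835 (0.757 to 0.920). The neighbouring window X 60001 to 61000 (tier 2) had 52.0 RPKM in WT, 37.7 in set-32, 35.1 in the double mutant, 52.5 in the triple mutant, against 29.5 in hrde-1, with no such excess.

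Of 30 windows that could be called in this comparison 5 were higher and 6 lower, against 8.04% higher and 27.1% lower over the table. Rescaled as above, 33 could be called, with 8 higher and 5 lower, against 16.8% and 16.1%. Besides the window at 59 kb, those called higher as deposited were at 9, 35, 124 and 431 kb, with 20.1 to 27.8 RPKM in the triple mutant, a level of 6 to 9 reads. X 124001 to 125000 (tier 2) had 2.28 RPKM in WT, 4.49 in set-32, 11.9 in the double mutant, 20.1 in the triple mutant, and hrde-1 had 1.47. The triple mutant and the double mutant were the highest there and at 59 kb, and the rank of the triple mutant is in part fixed by the call. The other windows called higher did not share this order. The double mutant was below WT at 9 kb (14.9 against 16.4 RPKM) and 35 kb (4.48 against 11.9 RPKM). At 431 kb it was below hrde-1 (14.9 against 16.2 RPKM). The median log2 ratio was -0.31 in the stretch, -0.17 in the rest of chrX and -0.31 in the genome, so by the median the stretch was lower than the rest of chrX.

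A run of 3 adjacent windows at X 67001 to 70000 (tiers 3 and 4) was called lower in the triple mutant than in WT. Their mean was 28.7 RPKM in WT, 33.8 in set-32, 21.4 in the double mutant, 7.72 in the triple mutant (7 reads), against 37.1 in hrde-1. The triple mutant was the lowest library there and hrde-1 the highest. The low rank of the triple mutant and its low ratios are in part fixed by the call that picked the run. The ratio of the triple mutant to WT was 0.269 (0.0987 to 0.540) and that to set-32 was 0.228 (0.0826 to 0.472). Of these, X 68001 to 69000 had 29.6 RPKM in WT, 45.8 in set-32, 29.9 in the double mutant, 9.26 in the triple mutant, and hrde-1 had 53.8.

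Across the library sets, set-32 against WT had about the same ratio in the stretch as in the rest of chrX. The ratio was 0.843 in the stretch and 0.848 in the rest of chrX, a relative ratio of 0.995 (0.938 to 1.06). As deposited, 9 of 37 windows that could be called were lower and 2 higher, against 30% lower and 2.83% higher over the table. Rescaled, 2 of 49 were lower and 11 higher, against 9.26% and 10.4%, so the direction of the split depends on the scaling. The median log2 ratio was -0.27 in the stretch, -0.42 in the rest of chrX and -0.53 in the genome, so relative to the genome the stretch was the higher. Relative to the rest of chrX, set-32 was lower than WT at 0 to 50 kb (0.839, 0.710 to 0.985) and 150 to 200 kb (0.775, 0.684 to 0.878). It was higher at 400 to 450 kb (1.48, 1.28 to 1.72) and at 450 to 500 kb (1.97, 1.13 to 3.38), where the means were 0.586 RPKM in WT and 0.980 in set-32. X 150001 to 151000 (tier 2) and X 132001 to 133000 (tier 3) were the windows called higher as deposited. The first had 18.9 RPKM in WT, 42.9 in set-32, 16.2 in the double mutant, 10.95 in the triple mutant, against 4.34 in hrde-1, and the latter 6.84, 23.4, 15.7, 18.5 and 6.63 RPKM.

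The triple mutant against WT had a relative ratio of 1.22 (1.14 to 1.31), but 0.922 (0.848 to 1.00) without the 2 windows of highest mean and 0.906 (0.830 to 0.988) without the top 1% of chrX windows. As deposited, 21 of 42 windows that could be called were lower and 6 higher, against 56% lower and 4.73% higher over the table. Rescaled, 3 of 59 were lower and 19 higher, against 18.9% and 20.1%. The median log2 ratio was -0.66 in the stretch, -0.60 in the rest of chrX and -0.85 in the genome. The windows at the right end of chromosome I, where the rRNA genes are known to lie, took 37.3% of the triple mutant library and 27.8% of set-32, against 4.64% to 8.90% of the others, and their part in these splits was not tested. X 489001 to 490000 (tier 4), called higher, had 4.06 RPKM in WT, 15.7 in set-32, 5.96 in the double mutant, 29.0 in the triple mutant, and hrde-1 had 7.85.

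The window with the highest mean lay beyond the H3K9me3-rich part. X 422001 to 423000 (tier 3, no mark) had 216 RPKM in WT, 332 in set-32, 227 in the double mutant, 269 in the triple mutant, and hrde-1 had 292. Its neighbour X 421001 to 422000 (tier 4) had 66.6, 70.1, 53.7, 52.5 and 79.6 RPKM in the same order. WT was not the highest library in either. Over both windows the hrde-1 to WT ratio was 1.31 (1.11 to 1.56), so the low hrde-1 values of the first 210 kb were not shared by these windows.

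The pattern over windows was closest between WT and set-32, with a Spearman's rho of 0.81 over the 487 windows, and rho was 0.63 between WT and hrde-1 and 0.46 between the triple mutant and hrde-1. In the rest of chrX the same pairs had 0.69, 0.75 and 0.58 over 17127 windows. The order thus differs: WT resembled hrde-1 more than set-32 in the rest of chrX, and set-32 more than hrde-1 in the stretch. These are descriptions over windows that share libraries of unequal depth. The limit of the stretch was set by position alone. The last 10 windows inside it had means of 1.19 RPKM in WT against 1.63 in hrde-1, and the first 10 outside had 1.82 and 1.62.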

How the data were processed

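Alignment was to WS190 (ce6) with Bowtie 0.12.7, as the study's methods and the processing notes of the submitters state, with perfect matches alone and each read shared equally among the places it matched. Values as the authors deposited them are RPKM in 1 kb windows, 1 column for each library. They also deposited a score, the tier of each window, and marks of H3K9me3 loss in 2 replicates of each HMT mutant. Columns were matched to genotypes by the study's list of libraries, and mark codes were read as the triple mutant and met-2 set-25 because their marked windows are as many as stated for those strains.

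Reads were recovered by dividing values by that of 1 read; 76.9% to 80.3% of positive values were whole within 0.02 read. Totals were 323718 (triple mutant) to 1096096 (WT) reads. Windows were chosen by position alone; the stretch, lists and settings were chosen with earlier results of these data known. Levels were compared as ratios of sums with exact Clopper-Pearson intervals (95%), and relative ratios with log-scale intervals from the 4 sums of reads (Python 3.11.15, numpy 2.4.6, pandas 2.3.3, scipy 1.17.1). PCR copies are not independent molecules. Called windows had a ratio that reached 2 after 1 RPKM was added and a larger value of at least 20 RPKM, on which 6.47 (triple mutant) to 21.9 (WT) reads rest. The pseudocount understates changes of low windows. The call rule was tried on simulated data only for windows of at least 20 RPKM changed 4-fold. Recovery of smaller changes and false calls were not counted. Named windows were the 10 of highest mean, up to 5 with the largest and smallest called ratios in each comparison, runs of at least 3 adjacent called windows, and the 5 of highest mean among windows marked in all 3 mutants and among tier 2. Alternatives were other ends (400 and 600 kb), pseudocount, minimum levels, ratio, rescaling, misannotated windows kept, and the highest windows left out. Blocks were chosen after values were seen.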

Additional observations from a re-analysis of the deposited data

Results flagged for a closer look

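Over all windows, the relative ratio for loss of MET-2 and SET-25 lay on opposite sides of 1 with and without SET-32. Of the settings tried, only leaving out the 1% of chrX windows with the highest mean put both on the same side. Relative to the rest of chrX, the ratio of the stretch was 0.763 for the double mutant met-2 set-25 against WT and 1.23 for the triple mutant against set-32. The difference between them was not tested, since each rests on 1 library a genotype. With the end at 400 kb they were 0.695 and 1.24, and at 600 kb 0.787 and 1.21. Without the 2 windows of the stretch with the highest mean they were 0.720 and 1.01. These 2 windows include X 59001 to 60000, with 693 RPKM in the triple mutant. Without the 1% of chrX windows with the highest mean both were below 1, at 0.686 (0.645 to 0.730) and 0.835 (0.757 to 0.920). The median log2 ratios were also below those of the rest of chrX in both, at -0.35 against 0.11 and -0.31 against -0.17.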

How the results depend on the processing

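The hrde-1 to WT change kept its direction under each alternative tried. The level against the rest of chrX turned over in some libraries. It was 1.55 in WT and 0.794 in hrde-1 with the end at 400 kb, and 1.26 (WT), 1.25 (set-32), 0.994 (double mutant), 1.51 (triple mutant) and 0.780 (hrde-1) with the end at 600 kb. Over windows that average 5 RPKM or more it was 0.838, 0.829, 0.659, 1.11 and 0.484 in this order, without the 1% of chrX windows with the highest mean 1.78, 1.93, 1.22, 1.61 and 1.04, and without the 2 windows of the stretch with the highest mean 1.29, 1.18, 0.932, 1.19 and 0.687. The relative ratios at 400 kb were 0.512 (hrde-1 / WT), 0.695 (double mutant / WT), 0.915 (set-32 / WT) and 1.14 (triple mutant / WT), and the last was 1.32 over windows that average 5 RPKM or more. Without the top 1% they were 0.686 (double mutant / WT), 0.835 (triple mutant / set-32), 1.09 (set-32 / WT) and 0.906 (triple mutant / WT), and without the 2 highest windows 0.531 (hrde-1 / WT), 0.720, 1.01, 0.910 and 0.922. Calls with the larger value at least 10 RPKM, as higher and lower, were 5 and 56 (hrde-1 / WT), 17 and 33 (double mutant / WT), 16 and 21 (triple mutant / set-32), 7 and 25 (set-32 / WT) and 11 and 47 (triple mutant / WT), and with a ratio of at least 4 they were 0 and 14, 0 and 0, 1 and 2, 0 and 0, and 3 and 3. With a pseudocount of 5 RPKM the higher calls were 0 (hrde-1 / WT) and 1 (double mutant / WT). Rescaled, they were 8 (triple mutant / set-32), 11 (set-32 / WT) and 19 (triple mutant / WT), with 2 and 3 lower in the last pair. The median log2 ratio of hrde-1 / WT was -0.55 with a pseudocount of 5 RPKM and -0.41 with no filter, where it was -0.13 (double mutant / WT), 0 (triple mutant / set-32) and -0.36 (triple mutant / WT). Rescaled medians were -0.047 (triple mutant / set-32), 0.23 (set-32 / WT) and 0.092 (triple mutant / WT). The cause was not tested. No paired analysis was possible because each genotype has 1 library. With 1 library a genotype, differences between animals or preparations have no estimate, and a window at 20 RPKM rests on 6.47 reads in the triple mutant.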

Other observations

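The 13 windows marked as misannotated, which enter no comparison, were X 1 to 1000, X 109001 to 115000 and X 290001 to 296000, all of tier 8. Their values stayed between 0 and 3.76 RPKM in every library. At X 112001 to 113000, WT had 1.28 RPKM, set-32 0.78, met-2 set-25 3.76, the triple mutant 2.30 and hrde-1 3.25.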
